A study of Mus musculus with 3 samples.

Results

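Single mouse embryonic stem cells labelled Mll1-/- (here called deleted) were compared with cells labelled Mll1fl/fl control on each of 3 plates. Wells were taken by the cell type number in the deposited well reports, and those with fewer than 1000 genes, or with 20% or more of their unique molecular identifiers (UMIs) from the mitochondrial genome, were left out. This gave 2823 wells of the 4413 kept in the whole series: 617, 558 and 338 control wells and 414, 354 and 542 deleted wells on plates 1, 2 and 3. All cells, the controls included, were blastocyst-derived embryonic stem cells with the genotype Mll1fl/fl; Cre-ER TM on the C57BL/6J background, that is, with loxP-flanked Mll1 alleles and an inducible Cre recombinase. The labels do not say which exons were removed, how or when Cre was induced, how long before the measurement, or whether the control cells also met the inducer. The series also holds cells with MLL1 inhibited, which entered the fits to share the estimate of the spread and are not described here. Whether each plate held its own culture is not in the labels, and the p-values therefore measure spread between plates, part or all of which may be technical.

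MLL1, encoded by Kmt2a (the current symbol of Mll1), is a histone methyltransferase that places methyl groups on lysine 4 of histone H3, a mark of active promoters and enhancers. It works in a complex with WDR5, RBBP5, ASH2L and DPY30, which the other enzymes of its family (MLL2, MLL3, MLL4, SETD1A and SETD1B) share, and it binds menin, the product of Men1. It is best known for keeping Hox genes on during development and in blood cells, and mouse embryonic stem cells can be grown without it.

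Kept control wells held a median of 39644 UMIs and deleted wells 34721, against 165 UMIs in wells without cells. By plate the medians were 41125, 35460 and 42339 UMIs in control wells and 39659, 58507 and 23556 UMIs in deleted wells, so deleted wells were shallower on plates 1 and 3 and deeper on plate 2. Each well was therefore thinned at random to 5869 UMIs, which 1410 control and 1147 deleted wells reached. Measures per well or per gene across wells were taken on these thinned wells. The exceptions were total UMIs and a well's mitochondrial share, which were taken on all kept wells. Between plates, 391 to 453 well barcodes were shared, since the chips reuse 1 barcode set. Summed markers of embryonic stem cells stood at 6235 to 6409 CPM (UMIs scaled to equal library size) in control libraries and 5165 to 6605 CPM in deleted ones, and 10 of 10 markers were detected. Most of this sum came from Dppa5a. The fibroblast and feeder markers (6 of 6 under 1 CPM) summed to 0.639 to 2.56 CPM in control and 1.41 to 2.74 CPM in deleted libraries, and the blood and endothelial ones to 1.17 to 2.75 and 1.22 to 4.21 CPM, with none of these markers at 0 in the series.

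Kmt2a (ENSMUSG00000002028, GRCm38/mm10 chromosome 9, 44803355 to 44881296, minus strand), the gene named in the labels, was not lower in the wells labelled deleted. Its UMIs were found in 20.7, 18.3 and 19.9% of thinned control wells on plates 1 to 3 and in 24.6, 16.9 and 18.4% of deleted wells. The share was higher in deleted wells on plate 1 and lower on plates 2 and 3, and the difference in log odds was 0.01 ± 0.10 (SE; limma, adjusted p = 0.974). In wells with a Kmt2a UMI, the mean number was 1.73, 1.67 and 1.47 in control and 1.79, 1.70 and 1.75 in deleted wells. The labels give neither the deleted exons nor the end of the transcript that was counted, so Kmt2a UMIs do not check the labels, and "deleted" below means the label. The labels did separate the libraries otherwise. After each plate's mean over the 3 cell types was removed, libraries of 1 cell type on different plates correlated at 0.141 to 0.289 across genes (9 pairs, inhibited cells included). Libraries of different types stood at -0.250 to -0.0295 (18 pairs). Removing the plate mean forces these below 0 on average once the former are above 0, so they are no separate evidence.

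The summed UMIs per plate and cell type gave few changes. Of 17119 genes tested with edgeR's quasi-likelihood test with the plate as a block, 6 (0.035%) passed an adjusted p of 0.05, and all 6 were higher in deleted cells: the mitochondrial ribosomal RNAs mt-Rnr2 and mt-Rnr1, Anxa2, Lgals3, Sqstm1 and Dusp9. None was lower, while 875 genes were higher and 893 lower at an unadjusted p under 0.05. DESeq2 called 168 genes higher and 157 lower at the same adjusted threshold. On each pair of plates, 57.0 to 59.8% of the 7577 genes of at least 10 CPM differed in the same direction.

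**Figure D1:**
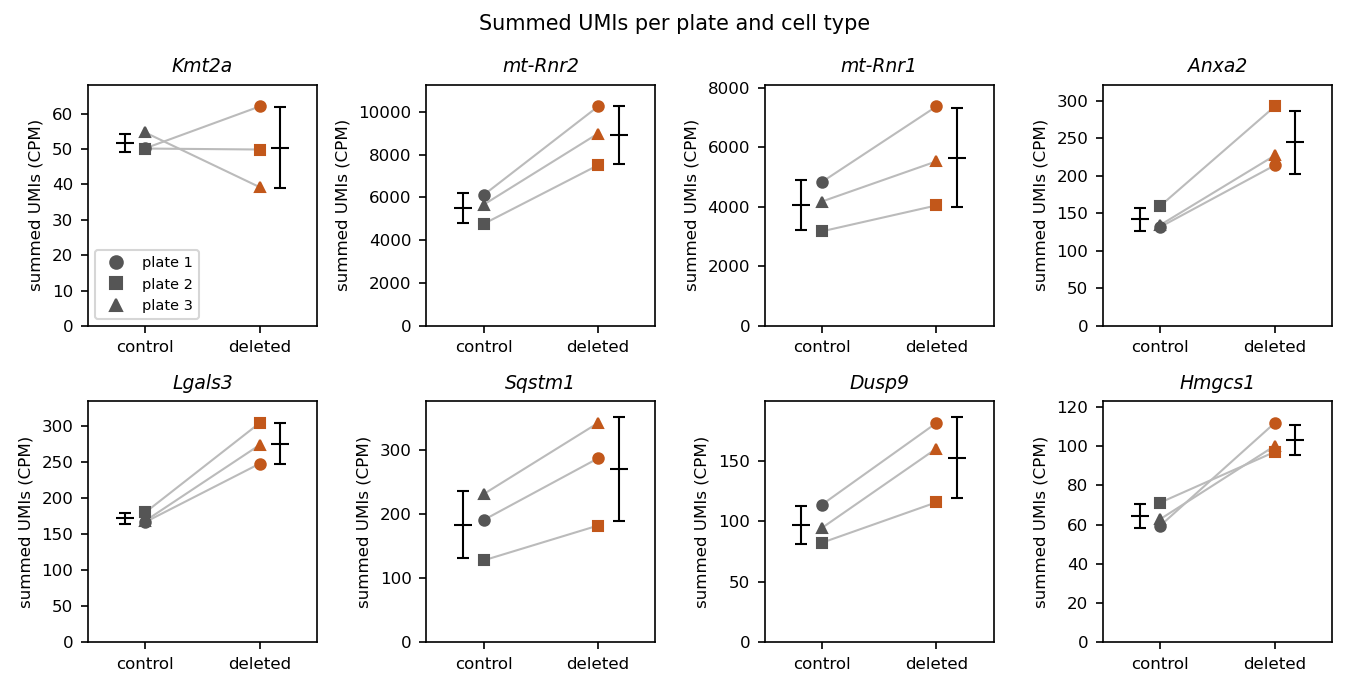
Summed UMIs in CPM (y axis, from 0) for control and deleted cells, 1 panel per gene; symbols are plates, grey lines join a plate's pair, and black bars give the mean and SD over 3 plates. mt-Rnr2 rose on every plate, from 4764 to 6114 CPM in control cells to 7510 to 10254 CPM in deleted cells, while the Kmt2a lines cross.

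Summing hides how the UMIs are spread over wells, so 3 further measures were taken at equal depth for the 4940 genes found in at least 10% of thinned wells: the share of wells with a UMI, the mean UMIs in wells with at least 1 (positive wells), and the Fano factor, the variance over wells divided by the mean. Differences in shares are in log odds and the others in log2, and they were tested with limma. The share of wells with a UMI differed for 136 genes (2.75%): 11 rose (0.223%) and 125 fell (2.53%) in deleted cells. The mean in positive wells differed for 25 genes (0.506%), of which 13 rose (0.263%) and 12 fell (0.243%). No gene passed for the Fano factor, where 325 were higher and 38 lower at an unadjusted p under 0.05. Dusp9 alone passed both for the sum and for the share of wells, mt-Rnr1 and mt-Rnr2 for the sum and the mean in positive wells, and Slc25a5, Snrpg and the pseudogene Gm15710 for the share and the mean in positive wells.

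Mitochondrially encoded RNA was higher in deleted wells on every plate, in the middle and in both tails of the wells. The median share of UMIs from the mitochondrial genome per well was 3.11, 3.06 and 3.18% in control wells of plates 1 to 3 and 4.16, 3.81 and 3.87% in deleted wells. The 3 deleted values lay above all control values, by a mean of 0.829 ± 0.193 percentage points (SD, n = 3 plates; exact sign permutation p = 0.25, two-sided, the smallest that 3 plates allow). The 10th percentile went from 1.97, 2.15 and 2.11% to 2.78, 2.68 and 2.43%, and the 90th from 5.79, 4.92 and 5.31% to 9.66, 9.0 and 8.13%. Each of these percentiles was higher in deleted wells on every plate. At equal depth the mitochondrial genome list was higher by 0.37, 0.33 and 0.29 (log2) at the median well and by 0.69, 0.78 and 0.65 at the 90th percentile. When wells were split by their total UMIs into 5 bins per plate, the median was higher in deleted wells in 15 of 15 bins. The cells had been dispensed from 8 source wells for control and 7 for deleted cells, and the median share was 2.80 to 3.33% over the former and 3.66 to 4.27% over the latter, with no overlap.

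The 2 ribosomal RNAs of the mitochondrial ribosome led this list. mt-Rnr2 (16S; chromosome M, 1094 to 2675, plus strand) was found in every thinned well, and its mean was 37.1, 28.0 and 36.7 UMIs per control well and 68.8, 53.4 and 63.3 UMIs per deleted well. Each deleted value was above each control value, and the log2 difference was 0.87 ± 0.08 (SE; limma, adjusted p = 0.000298). Its 99th percentile moved as well, from 187, 136 and 158 to 306, 266 and 308 UMIs per well, while the 5% of wells with the most UMIs held 20.5 to 22.1% of them in control and 20.2 to 23.7% in deleted libraries. mt-Rnr1 (12S) had 30.2, 18 and 24.8 UMIs per positive control well and 45.3, 28.2 and 36.1 per deleted well, higher on every plate though the groups overlapped, with a log2 difference of 0.59 ± 0.06 (SE; limma, adjusted p = 0.000524). In the summed UMIs, mt-Rnr2 differed by 0.69 ± 0.04 (edgeR adjusted p = 0.000103) and mt-Rnr1 by 0.46 ± 0.06 (0.0433). For the sum, mt-Rnr2 stayed past the threshold in 10 of 11 alternative settings and without any 1 plate, and mt-Rnr1 in 5 of 11. Without plate 1, 2 or 3 in turn, the sums of mt-Rnr1 and of each of Anxa2, Lgals3, Sqstm1 and Dusp9 kept their direction but did not pass. For the mean in positive wells, mt-Rnr2 and mt-Rnr1 each passed in 8 of 10 alternative settings, but not without plate 2 or with no replicate block.

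Of the 11 genes of the mitochondrial genome tested for the mean in positive wells, 11 were above 0 with a median of 0.27, against 71.1% of all 4940 genes and 0.06, and 7 rose, against 0.263% of all genes. mt-Nd4, a subunit of respiratory complex I, had 23.5, 24.4 and 23.3 UMIs per control well and 30.7, 31.9 and 33.5 per deleted well, with no overlap (0.43 ± 0.06, limma adjusted p = 0.00656). mt-Nd5, another complex I subunit, was at 9.19, 9.32 and 7.97 against 12, 12.2 and 10.2 UMIs, also with no overlap (0.37 ± 0.04, 0.000524). mt-Co1, the catalytic subunit of cytochrome c oxidase, went from 20.8, 21.2 and 19.7 to 25.2, 26.6 and 24.8 UMIs. The other 2 were mt-Nd2 and mt-Nd6, both at 0.27 ± 0.05 (adjusted p = 0.0339). The 7 that rose passed in 3 (mt-Nd2) to 8 of 10 alternative settings and stayed above 0 in all. None of the 7 passed without plate 2, where 0 of all 4940 genes did. Wells left out for their mitochondrial share were also unequal: 10 control and 51 deleted wells.

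**Figure D2:**
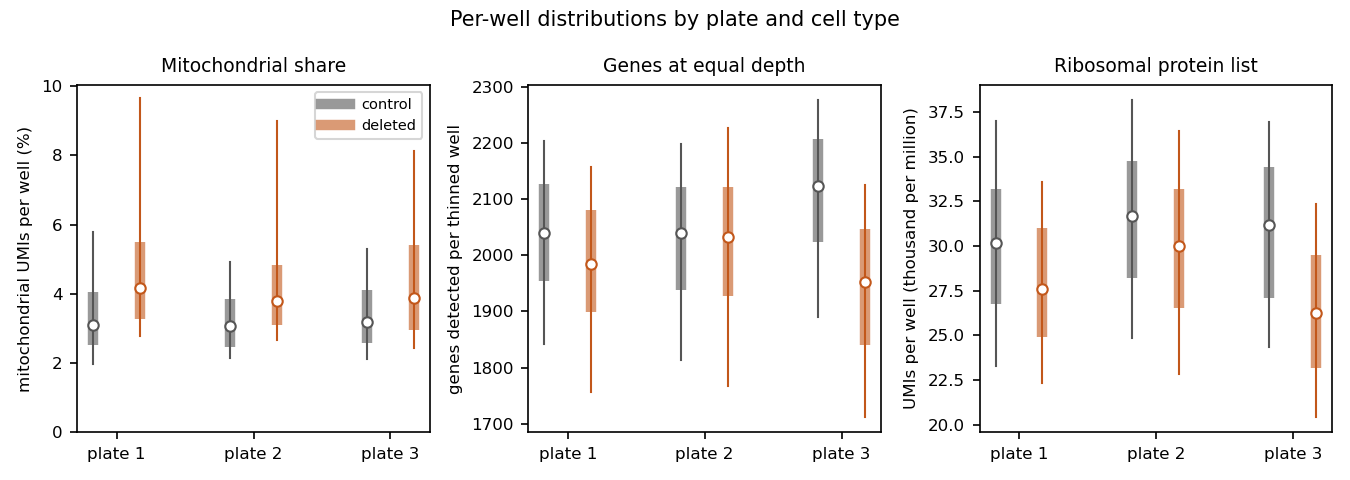
Per-well distributions by plate: mitochondrial share of UMIs (%) in all kept wells, and, in thinned wells, genes detected and UMIs of the ribosomal protein list (in 1000 CPM). Circles are medians, thick bars the 25th to 75th percentiles and thin lines the 10th to 90th percentiles. Deleted wells lie higher in the first panel on every plate (medians 3.81 to 4.16% against 3.06 to 3.18%) and lower in the third.

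Nuclear-encoded genes of the same respiratory chain did not rise with it. Of 33 listed subunits, 30 were below 0 for the share of wells with a median of -0.21, against 70.5% of all genes and -0.08, and 4 fell, against 2.53% of all genes. Cox6b1, a nuclear subunit of cytochrome c oxidase, was found in 95.3, 93.4 and 97.1% of control wells and 90.9, 91.6 and 88.2% of deleted wells. The groups did not overlap, and the difference was -0.82 ± 0.18 (SE; limma, adjusted p = 0.0153). Cox5a, of the same enzyme, was at 69.4, 70.1 and 70.2% in control and 64.4, 61.7 and 54.6% in deleted wells, again without overlap (-0.42 ± 0.11, 0.0268). The other 2 that fell belong to the ATP synthase, Atp5c1 (-0.48 ± 0.12, 0.0256) and Atp5o (-0.69 ± 0.18, 0.0349). Cox6b1, Cox5a, Atp5c1 and Atp5o passed in 4, 2, 4 and 3 of 12 alternative settings, and each stayed below 0 in all. None of these 4 passed with mitochondrial genes left out before thinning or with wells matched on total UMIs. Summed UMIs moved less: 25 of the 33 were below 0, with a median of -0.05 against 0.00 over all genes, and none passed. The list was lower by 0.16, 0.19 and 0.22 (log2) at the 10th percentile of wells on plates 1 to 3 and by 0.07, 0.07 and 0.11 at the median, and at the 95th percentile it differed by 0.03, -0.11 and 0.00.

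The transporter Slc25a5, which exchanges ADP and ATP across the inner mitochondrial membrane, fell by both measures. It had 6.41, 8.13 and 8.45 UMIs per positive control well and 5.05, 6.89 and 6.50 per deleted well, lower on every plate though the groups overlapped. The log2 difference was -0.32 ± 0.04 (SE; limma, adjusted p = 0.00368), and in the share of wells it was -0.80 ± 0.19 log odds (0.0248). Chchd10, a protein of the space between the mitochondrial membranes, was found in 97.8, 99.4 and 98.7% of control and 97.1, 97.0 and 95.2% of deleted wells, without overlap (-1.04 ± 0.26, 0.0256). For the share of wells, Slc25a5 passed in 5 and Chchd10 in 3 of 12 alternative settings. Neither share passed with wells matched on total UMIs or with any 1 plate left out, nor did that of Chchd10 with another random thinning. The summed level of Chchd10, 2137, 2614 and 1954 against 1733, 2046 and 1539 CPM, had the smallest p among genes that were lower, but did not pass (-0.33 ± 0.05, edgeR adjusted p = 0.0563).

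Ribosomal protein genes of the cytosolic ribosome were lower at each percentile of wells examined. Of 32 in the list, 29 were below 0 for summed UMIs with a median of -0.15, against 50% of all genes and a median of 0.00. For the share of wells 27 of 31 were below 0 with a median of -0.24, against 70.5% of all genes and -0.08, and 2 of the 31 fell, against 2.53% of all genes. The list made up 30159, 31692 and 31181 CPM in the median control well and 27603, 29988 and 26240 in the median deleted well. The 3 deleted values lay below the 3 control values. The log2 ratio was -0.06, -0.12 and -0.25 at the 10th percentile, -0.13, -0.08 and -0.25 at the median and -0.14, -0.07 and -0.19 at the 90th percentile, and the deleted median was lower in 14 of the 15 depth bins. Over all ribosomal protein genes tested, a set chosen after the values were seen, 91 of 101 were below 0 for the sum, 73 of 84 for the share of wells and 68 of 84 for the mean in positive wells.

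Rpl18 fell in the share of wells, from 97.8, 96.7 and 95.8% to 93.6, 94.0 and 90.7%. Its groups did not overlap, and the difference was -0.85 ± 0.17 log odds (SE; limma, adjusted p = 0.00673), although it was -0.29 when wells were thinned to the 25th percentile of depth. Rpl41 fell in the mean of positive wells, from 19.8, 18.4 and 19.9 to 17.2, 15.8 and 13.6 UMIs (-0.32 ± 0.06, 0.0443), and was found in every well. It passed in 1 of 11 alternative settings, and without plate 3 its difference was -0.21 (0.0506). In the sum, Rpl14 was at 1045, 1183 and 1015 CPM in control and 926, 1034 and 750 CPM in deleted libraries, lower on every plate with overlap, and did not pass (edgeR adjusted p = 0.193). Of the 125 genes that fell in the share of wells, 36 (28.8%) were annotated as pseudogenes, against 8.95% of genes tested. Ribosomal protein genes made up 8 of the 125 (6.4%), against 1.70% of genes tested. Of the 12 genes that fell in the mean of positive wells, 6 (50%) were annotated as pseudogenes. The sources used here do not say how reads that fit several copies were counted, so genes with processed pseudogenes are uncertain. Beside this, the long noncoding RNA Gm42418, which overlaps a ribosomal RNA repeat, rose from 100.1, 55.7 and 55.8 to 161, 92.2 and 103 UMIs per positive well (0.77 ± 0.14, limma adjusted p = 0.0339), higher on every plate with overlap of the groups. Hnrnpa2b1, an RNA-binding protein of splicing and transport, had the largest fall by size, from 100% of wells on each plate to 99.7, 99.7 and 98.2% (-1.86 ± 0.48 log odds, 0.0277), but -0.86 (0.387) with another random thinning. Snrpg, a core splicing protein, fell from 99, 97.5 and 99% to 97.1, 94.9 and 95.9% of wells (-1.04 ± 0.22, 0.00982). It passed in 4 of 12 alternative settings, and not with another random thinning, with wells matched on total UMIs or without plate 1 or 3. Snrpe, another core splicing protein, was at 628, 629 and 635 against 517, 526 and 486 CPM without passing (edgeR adjusted p = 0.123).

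**Figure D3:**
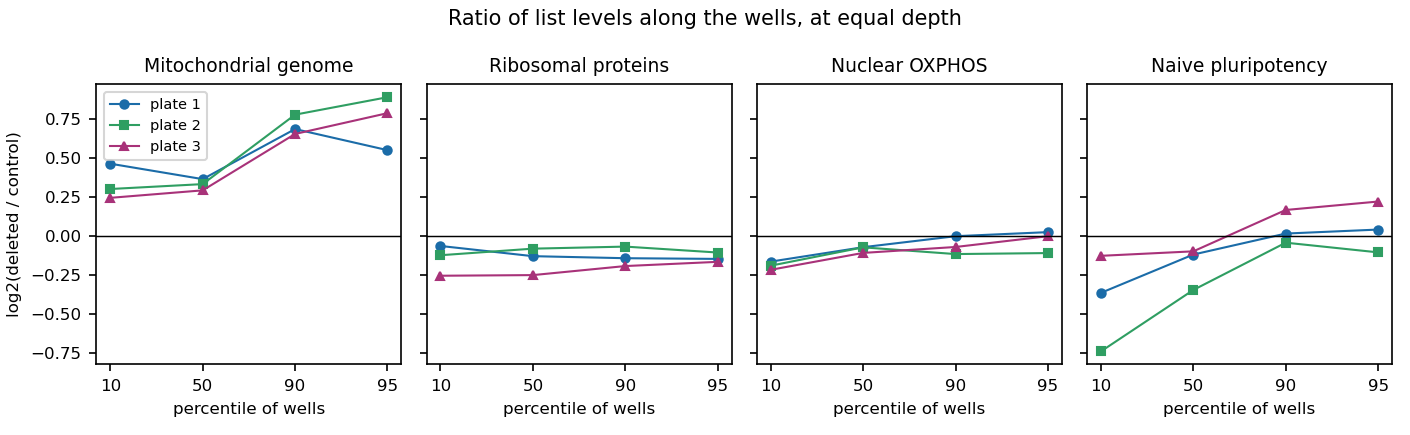
Log2 ratio of deleted to control wells (y axis) at the 10th, 50th, 90th and 95th percentiles of wells (x axis) for 4 gene lists at equal depth, 1 line per plate. The mitochondrial genome is above 0 at every percentile, ribosomal proteins are below 0 at each, and naive pluripotency is lowest at the 10th percentile (-0.36, -0.74 and -0.13 on plates 1 to 3). Most UMIs of the naive pluripotency list were of Dppa5a.

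The nuclear genes that rose in the sum were Dusp9, Anxa2, Lgals3 and Sqstm1. Dusp9 (chromosome X, 73639419 to 73643514, plus strand), a phosphatase that turns off ERK, was found in 41.5, 30.1 and 36.2% of control wells and in 56.4, 41.6 and 52.4% of deleted wells. Every deleted plate was above every control plate, by 41.6 against 41.5% at the closest, and the difference was 0.59 ± 0.09 log odds (SE; limma, adjusted p = 0.000557). The mean in positive wells was 2.02, 1.79 and 2.03 against 2.26, 2.07 and 2.34 UMIs and did not pass (adjusted p = 0.277). The share stayed past the threshold in 9 of 12 alternative settings, with adjusted p = 0.127 when wells were matched on total UMIs. Less the difference that the gene's mean level predicts, it was 0.0706 (adjusted p = 0.933). Of the 15 genes of the ERK feedback list, 8 were above 0 and 7 below in the sum, with a median of 0.01. Dusp9 was the 1 of the 15 that passed, where 0.035% of all genes did.

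Anxa2, a membrane-binding protein of the annexin family, was at 132, 160 and 134 CPM in control cells and 214, 292 and 227 CPM in deleted cells, with no overlap (0.78 ± 0.07, edgeR adjusted p = 0.00665). Its share of positive wells was 37.3, 33.7 and 33.3% against 34.5, 38.0 and 37.9%, in different directions on different plates. Wells with at least 5 Anxa2 UMIs made up 4.66, 5.01 and 3.53% of control and 6.15, 11.1 and 7.26% of deleted wells, which did not overlap. The summed difference rested in part on the deepest wells: it was 0.56 (adjusted p = 0.0357) without the deepest 5% and 0.35 (0.0883) when each well was thinned to the same depth. Lgals3, which encodes the sugar-binding galectin-3, was at 167, 180 and 169 CPM against 248, 305 and 274 CPM, also without overlap (0.68 ± 0.07, 0.0141); its difference was 0.42 (0.0489) with thinned wells and 0.58 (0.0968) without the deepest 5%. Of 17 annexin, S100 and galectin genes tested, 16 were above 0 with a median of 0.31, against 50% of all genes and 0.00, and 2 rose, against 0.035% of all genes. Anxa1, at 61.4, 61.2 and 77.3 against 79.8, 153 and 154 CPM, and Anxa5, at 43.6, 45.5 and 46.8 against 52.6, 80.5 and 66.4 CPM, did not overlap between groups but did not pass (adjusted p = 0.137 and 0.203), and with thinned wells their differences were 0.51 and 0.08.

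Sqstm1, which encodes the autophagy receptor p62 and is a target of NRF2, was at 191, 128 and 232 CPM in control and 288, 183 and 343 CPM in deleted cells. It was higher on every plate, though the plates differed enough for the groups to overlap, and the log2 difference was 0.56 ± 0.06 (SE; edgeR adjusted p = 0.0225). Both parts of it leaned upward: the share was 58.7, 45.5 and 65.7% against 63.6, 51.2 and 76.4% of wells (limma adjusted p = 0.0781), and wells with at least 5 UMIs were 5.70, 3.47 and 10.6% against 8.02, 9.34 and 15.6%. In the NRF2 and autophagy list, 20 of 27 genes were above 0 with a median of 0.11, against 50% of all genes and 0.00. Sqstm1 was the 1 of the 27 that passed, where 0.035% of all genes did.

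The mean in positive wells rose for Nr0b1, Hmga2, Cd63 and Plaur, none of which passed for the share of wells (limma adjusted p = 0.744, 0.681, 0.66 and 0.148). Nr0b1 (DAX1; chromosome X, 86191764 to 86195947, plus strand), an orphan nuclear receptor of the naive pluripotency network, was seen in 24.5, 20.6 and 30.4% of control and 24.3, 19.3 and 27.9% of deleted wells, slightly lower on every plate. Its mean in positive wells was 2.01, 2.10 and 2.46 UMIs in control and 2.82, 2.73 and 3.70 UMIs in deleted wells, without overlap (0.48 ± 0.07, limma adjusted p = 0.01). Wells with exactly 1 Nr0b1 UMI went from 13, 11.6 and 12.5% to 8.29, 8.43 and 9.98%, and wells with at least 5 from 2.25, 2.31 and 4.49% to 4.01, 3.31 and 6.58%. The difference in positive wells was larger with wells matched on total UMIs (0.58, adjusted p = 0.00231), and did not pass with wells thinned to the 25th percentile of depth (0.33, 0.106) or with mitochondrial genes left out before thinning (0.37, 0.0699). Hmga2, a chromatin protein that bends DNA, had 1.79, 1.73 and 1.42 UMIs per positive control well and 2.33, 2.22 and 2.36 per deleted well (0.49 ± 0.09, 0.0389), but 0.29 (0.249) with another random thinning. Cd63, a tetraspanin of late endosomes and exosomes, was at 5.01, 6.11 and 4.94 against 5.84, 7.34 and 6.47 UMIs (0.29 ± 0.04, 0.0108), and Plaur, the urokinase receptor, at 2.12, 2.45 and 2.36 against 2.49, 3.36 and 3.10 UMIs (0.36 ± 0.07, 0.0392). The groups overlapped for Cd63 and not for Plaur, whose difference was 0.19 (0.248) with another random thinning. Cd63 passed in 6 of 11 alternative settings, Plaur in 1 of 11 and Hmga2 in 1 of 10. Cd63 did not pass with wells matched on total UMIs or without plate 2.

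**Figure D4:**
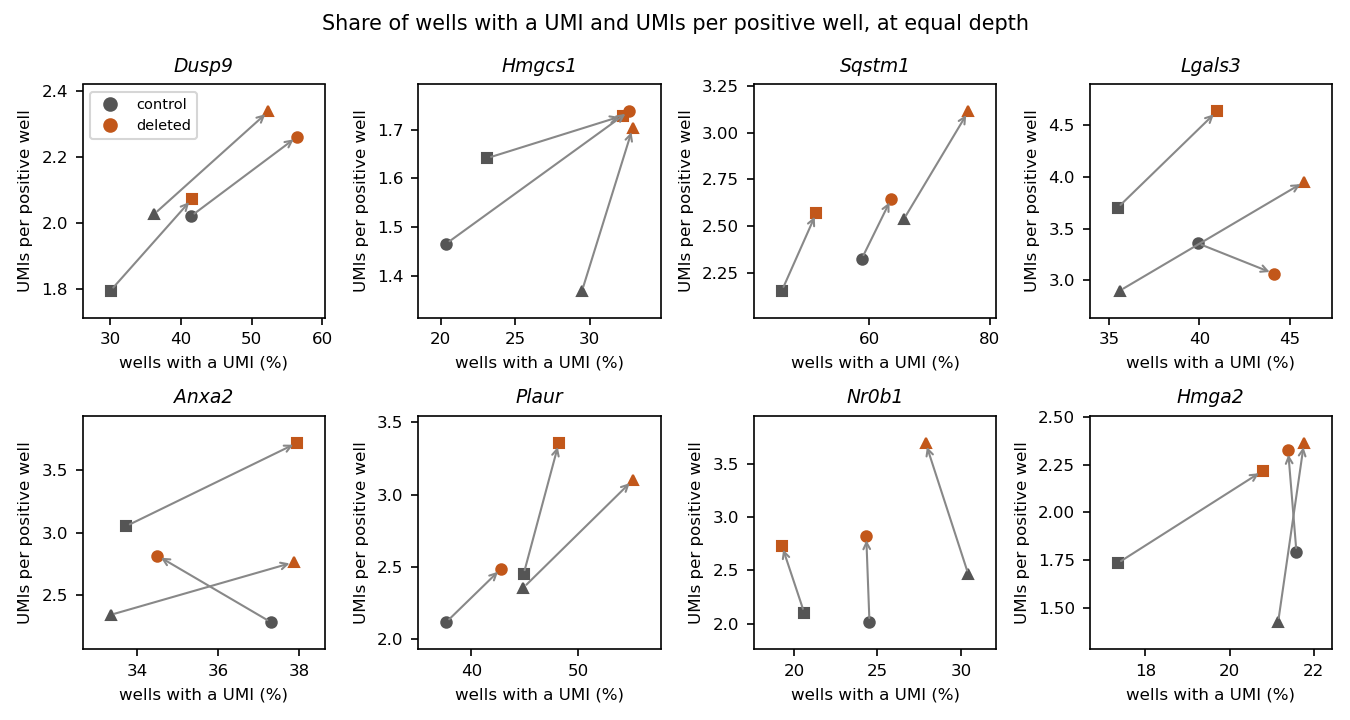
Share of thinned wells with a UMI (x axis, %) against mean UMIs per positive well (y axis) for 8 genes; each arrow runs from control to deleted cells of 1 plate (circle plate 1, square plate 2, triangle plate 3), and axes do not start at 0. Dusp9 arrows run to the right, from 30.1 to 41.5% in control wells to 41.6 to 56.4%, and Nr0b1 arrows run upward.

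Genes of cholesterol synthesis were mostly above 0, and 1 of them passed by 1 measure. Of 25 listed genes, 23 were above 0 for the sum with a median of 0.41 against 0.00 over all genes, and none passed (0.035% of all genes did). The groups did not overlap for 8 of the 25, all higher in deleted cells. Over all genes tested, 5.44% were higher without overlap and 5.52% lower (11% in all). Hmgcs1 (chromosome 13, 119690379 to 119708260, plus strand), which makes HMG-CoA, the substrate of the rate-limiting step, was found in 20.4, 23.1 and 29.5% of control wells and 32.6, 32.2 and 32.9% of deleted wells. The groups did not overlap, and the difference was 0.42 ± 0.10 log odds (SE; limma, adjusted p = 0.0219), the 1 of 11 listed genes tested for this that rose (0.223% of all genes did); with wells matched on total UMIs it was 0.40 (0.229), and without plate 1 it was 0.31 (0.285). In CPM it was at 59.4, 71.2 and 62.7 against 112, 97.0 and 100.0, a log2 difference of 0.68 ± 0.12 (edgeR adjusted p = 0.12).

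The list's other leading members act later in the pathway. Msmo1, a sterol oxidase, was at 69.1, 101 and 67.6 CPM against 101, 143 and 101 CPM, higher on every plate (0.54 ± 0.09, edgeR adjusted p = 0.0997). Cyp51, which removes a methyl group from lanosterol, was at 33.7, 33.2 and 36.7 against 51.1, 45.9 and 59.7 CPM (0.59 ± 0.12, 0.166). Fdps, which makes farnesyl diphosphate, was at 153, 143 and 171 against 194, 180 and 320 CPM (0.53 ± 0.11, 0.17), and without plate 3 its difference was 0.34. Along the wells, the list's 90th percentile was higher by 0.29, 0.29 and 0.42 (log2) on plates 1 to 3 and the median by 0.00, 0.32 and 0.32. The plate 3 deleted library, the shallowest per well, was the highest for Cyp51 and Fdps.

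SREBP transcription factors switch this pathway on by binding sterol response elements. The core letters CACNCCAC were searched on both strands in the 250 bases before each start in RefSeq's promoters (GRCm38.p6), and 3 of the 17 listed genes with an entry held them (17.6%), against 6.05% of 27025 gene symbols. The stretches of these 3 genes are shown. In the sum none of the 3 passed: Hmgcs1 differed by 0.68 (edgeR adjusted p = 0.12), Acat2 by 0.14 (0.753) and Insig1 by 0.43 (0.477). Hmgcs1 passed for the share of wells only. Capitals mark the match, each sequence runs 5′ to 3′ on its gene's strand, and a match is a description of the letters.
Hmgcs1 (chr13:119690169-119690268, plus strand, 128 bases before the start): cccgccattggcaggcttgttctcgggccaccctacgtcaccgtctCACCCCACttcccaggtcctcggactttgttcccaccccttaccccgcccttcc
Acat2 (chr17:12960853-12960952, minus strand, 173 bases before the start): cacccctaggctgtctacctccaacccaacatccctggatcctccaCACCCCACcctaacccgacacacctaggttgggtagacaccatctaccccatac
Insig1 (chr5:28071357-28071411, plus strand, match on the other strand, 1 base before the start): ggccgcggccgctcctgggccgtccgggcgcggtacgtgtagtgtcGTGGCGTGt

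Naive pluripotency genes were not lower as a group in the sum. Of 25 listed genes, 12 were above and 13 below 0, with a median of -0.01. The list's level in single wells shifted in its lower part: at the 10th percentile it was 1533, 1704 and 2045 CPM in control and 1193, 1022 and 1874 in deleted wells, and at the median 5452, 5623 and 6560 against 5026, 4430 and 6134. At both percentiles it was lower in deleted wells on all 3 plates, with overlap between groups. At the 90th percentile it was 14483, 13835 and 13955 against 14653, 13444 and 15676, with no common direction. Dppa5a, a small RNA-binding protein of stem cells, held most of the list's UMIs, so these percentiles largely follow that gene. It was at 5489, 5477 and 5578 CPM in control and 4904, 4502 and 5847 CPM in deleted libraries (edgeR adjusted p = 0.719). The whole list summed to 7011, 6976 and 7238 CPM in control and 6405, 5891 and 7438 CPM in deleted libraries. The list without Dppa5a was not examined along the wells.

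For the share of wells, 1 of 17 listed genes fell, where 2.53% of all genes did. Gdf3, a TGF-beta family ligand, was found in 34.2, 35.8 and 38.1% of control and 26.2, 31.6 and 28.3% of deleted wells, without overlap (-0.34 ± 0.09 log odds, limma adjusted p = 0.0413). It passed in 3 of 12 alternative settings and not without any 1 plate. Tdgf1, a co-receptor for Nodal and GDF3, was at 62.3, 63.6 and 66.3% against 56.1, 55.4 and 56.0%, also without overlap, and missed the threshold (-0.34 ± 0.10, 0.0503). Fgf4, the ligand that drives ERK signalling in these cells, was at 38.1, 54.9 and 39.8 CPM against 22.3, 33.3 and 25.7 CPM, and did not pass (-0.71 ± 0.20, edgeR adjusted p = 0.275). The core factor Pou5f1 was found in 29.7, 28.9 and 28.5% against 28.6, 26.8 and 28.8% of wells, and Nanog in 8.12, 7.51 and 9.94% against 6.15, 6.93 and 7.48%, under the level at which genes were tested.

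Trophectoderm genes were higher in the sum for 18 of 20 tested, with a median of 0.57 against 0.00 over all genes, but none passed. The groups did not overlap for 8 of the 20, all higher in deleted cells, against 5.44% of all genes. Krt18, a keratin of simple epithelia, was at 527, 603 and 647 CPM against 696, 1171 and 1214 CPM (0.75 ± 0.11, edgeR adjusted p = 0.0563), and its partner Krt8 at 179, 150 and 204 against 225, 276 and 345 CPM (0.64 ± 0.13, 0.179). Both depended on the deep wells: with wells thinned to equal depth the differences were 0.29 and 0.21, and without the deepest 5% of wells 0.42 and 0.51. At equal depth the list's 90th percentile was higher on plate 2 by 1.14 (log2), on plate 3 by 0.50, and on plate 1 by 0.00. The 6 trophectoderm markers, which include the keratin Krt7, summed to 40.1 to 46.1 CPM in control and 55.1 to 78.8 CPM in deleted libraries. Of these, 1 was under 1 CPM, and none passed for the sum. What the markers have to do with the keratins and annexins above was not tested. Primitive endoderm markers overlapped, at 10.2 to 15.1 and 12.4 to 16.6 CPM.

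Of the imprinted genes, 9 could be tested for the share of wells and 2 rose, where 0.223% of all genes did. H19, a noncoding RNA expressed from the maternal copy, was found in 35.4, 22.9 and 34.0% of control and 40.6, 33.1 and 43.1% of deleted wells (0.37 ± 0.09 log odds, limma adjusted p = 0.0256). Peg10, expressed from the paternal copy, was at 49.2, 39.7 and 43.3% against 57.8, 50 and 49.7% (0.34 ± 0.10, 0.0437). Both were higher on every plate, H19 with overlap of the groups and Peg10 without. H19 passed in 5 and Peg10 in 2 of 12 alternative settings, and neither passed without any 1 plate. Igf2, the growth factor gene next to H19 and expressed from the other parental copy, was at 50.2, 68.6 and 67.8 CPM against 99.2, 84.5 and 97.2 CPM without overlap, and did not pass (0.60 ± 0.13, edgeR adjusted p = 0.18). In the sum 10 of 21 imprinted genes were above 0, with a median of -0.10.

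Among genes of the MLL and COMPASS complexes, 14 of 20 were above 0 for the sum with a median of 0.03, and none passed. For the share of wells, 8 of 11 were below 0, near the 70.5% of all genes, with a median of -0.17 against -0.08. Dpy30 was the 1 of the 11 that fell, where 2.53% of all genes did. Dpy30, a subunit of every complex of the family, was found in 91.5, 92.9 and 91.7% of control and 89.6, 85.5 and 80.5% of deleted wells, without overlap (-0.66 ± 0.15 log odds, SE; limma, adjusted p = 0.0153). Plate 3 was the lowest, and without it the difference was -0.51 (0.158). Its summed level was 995, 1154 and 787 CPM against 886, 855 and 679 CPM, lower on every plate with overlap (-0.27 ± 0.07, edgeR adjusted p = 0.222). Kmt2b, the gene of the closest relative, MLL2, was in 18.3, 13.1 and 15.4% against 13.6, 11.7 and 15% of wells (adjusted p = 0.428). Of 24 Hox and other known MLL1 target genes tested for the sum, 13 were above and 11 below 0 with a median of 0.02, none passed, and none reached 10% of wells.

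Of 24 genes of G2 and mitosis, 18 were below 0 for the sum with a median of -0.08 against 0.00 over all genes, and none passed. For the share of wells 22 of 23 were below 0 with a median of -0.15, against 70.5% of all genes and a median of -0.08, and none passed. S phase genes had medians near those of all genes by both measures. For the sum, 14 of 24 were above 0 with a median of 0.02. For the share of wells, 20 of 22 were below 0, more than the 70.5% of all genes, with a median of -0.0621. The leading members of the G2 and mitosis list were Cenpa (162, 208 and 199 against 145, 171 and 153 CPM) and Birc5 (532, 630 and 543 against 455, 586 and 479 CPM), lower on every plate with overlap. Of the S phase list, 1 gene fell in the share of wells (2.53% of all genes did). This was Slbp, which binds the stem loop of histone messenger RNA and was found in 29.7, 27.2 and 29.2% of control and 23.0, 20.5 and 21.5% of deleted wells, without overlap (-0.37 ± 0.10 log odds, limma adjusted p = 0.0356). Hspa5, the main chaperone of the endoplasmic reticulum, fell as well, from 89.3, 93.6 and 92.0% to 85.6, 89.8 and 84.6% (-0.53 ± 0.14, 0.0277), and was the 1 of 17 unfolded protein and ATF4 genes to do so, where 2.53% of all genes did. Slbp passed in 1 of 11 alternative settings and Hspa5 in 3 of 12. Neither passed with another random thinning or without any 1 plate. Less what its mean level predicts, the difference for Slbp was -0.0007.

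The falls in the share of wells were part of a shift over most genes. Over all 4940 genes the median difference was -0.08 log odds, and 70.5% lay below 0, whereas the mean in positive wells leaned up (median 0.06, 71.1% above 0) and so did the Fano factor (0.15, 76.4% above 0). Plate 3 carried most of it: the median difference in the share was -0.0568, -0.0218 and -0.164 on plates 1 to 3, and that of the Fano factor 0.0486, 0.0211 and 0.367. Without plate 3 the medians over all genes were -0.0422 for the share, 0.0108 for the mean in positive wells and 0.0393 for the Fano factor. With wells of both types matched on total UMIs they were -0.0856, 0.0578 and 0.150. With mitochondrial genes left out before thinning they were -0.0696, 0.0630 and 0.153. The calls for single genes were less firm than the shift: none of the 136 passed with matched wells, though 136 kept their sign and 134 had an unadjusted p under 0.05, and 50 passed again with another random thinning. When the difference that a gene's mean level predicts was subtracted, none passed and 94 kept their sign.

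**Figure D5:**
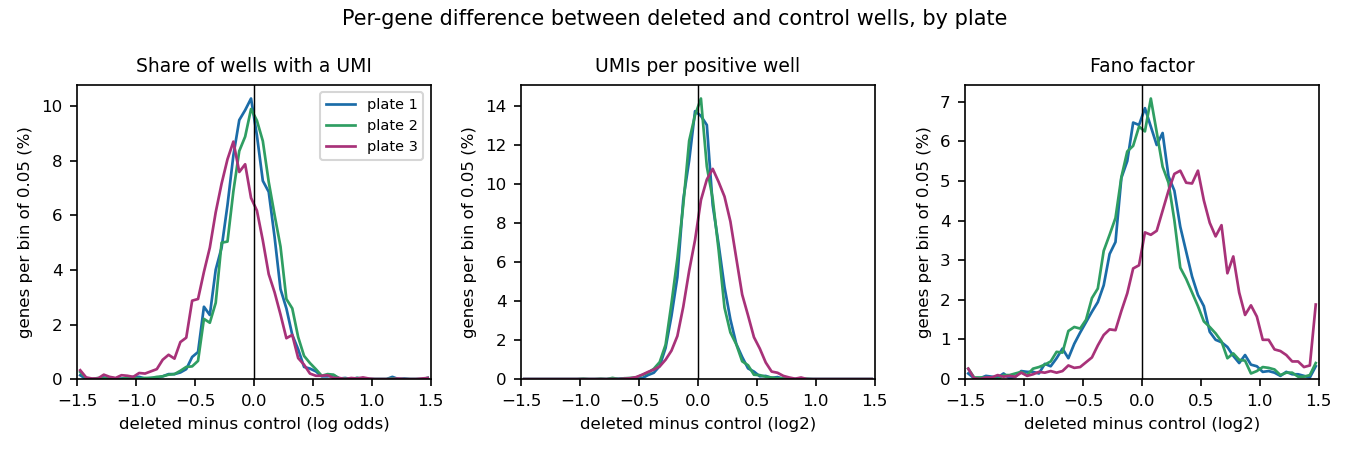
Distribution over 4940 genes of the difference between deleted and control wells (x axis) in the share of wells with a UMI (log odds), the mean UMIs in positive wells (log2) and the Fano factor (log2), as percent of genes per bin (y axis), 1 line per plate; the end bins hold all genes beyond 1.5. Plates 1 and 2 are centred near 0 and plate 3 is shifted, with a median of 0.367 for the Fano factor.

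Wells also held fewer genes at the same depth. The median was 2040, 2040 and 2122.5 genes per thinned control well and 1985, 2033 and 1953 per deleted well, lower on each plate by a mean of 77.2 ± 83.5 genes (SD, n = 3; exact sign permutation p = 0.25, the smallest possible). On plate 2 the difference was 7 genes. Within the depth bins the deleted median was lower in 14 of 15 and never higher. UMIs were also spread less evenly over genes, with a median Gini coefficient (0 for even, 1 for all in 1 gene) of 0.505, 0.498 and 0.497 in control and 0.513, 0.501 and 0.511 in deleted wells, which overlapped between groups (exact p = 0.25). Wells of 1 library resembled each other less in deleted cells: the median correlation between pairs of wells over 6096 genes was 0.523, 0.518 and 0.529 in control and 0.505, 0.502 and 0.481 in deleted libraries. The higher mitochondrial share moved with these measures on every plate, and its part in them was not tested.

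The 5 genes with the smallest p for well-to-well spread (Vps72, Isyna1, Cndp2, Nup133 and Cwc27) differed by 0.87 to 1.36 (log2), and by -0.0042 to 0.36 when counts were capped at each library's 99th percentile. Cndp2, a dipeptidase, had Fano factors of 1.54, 1.72 and 1.66 in control and 3.22, 3.01 and 3.15 in deleted libraries, and Cwc27, a spliceosome protein, 1.95, 1.86 and 1.91 against 3.26, 3.43 and 3.77. Neither pair of groups overlapped, and neither passed (0.93 ± 0.18 and 0.87 ± 0.17, limma adjusted p = 0.599 for both). In the well with the most Cndp2 UMIs there were 5, 5 and 5 in control and 11, 11 and 14 in deleted libraries, and with capped counts the difference was 0.22. Vps72, a subunit that hands histone H2A.Z to chromatin remodellers, had the smallest p (15.2, 3.53 and 1.83 against 39.1, 7.30 and 5.88, adjusted p = 0.269), and its difference was -0.0042 with capped counts.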

How the data were processed

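Per the labels' protocols, the RNA of single cells on a chip was reverse transcribed (SMARTScribe) and a Nextera XT procedure, modified, gave the libraries. The submitters' processing notes name mm10, Subread 1.4.6-p1, featureCounts and STAR 2.5.2b. The deposited tables hold raw UMI counts per gene and well, with no normalisation by the authors, and the well's cell type and totals stand in the deposited reports. Transcript end, strand and the treatment of reads that fit several genes are not given in the sources used here.

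Counts of kept wells were summed per plate and cell type into 9 libraries (25914860 to 43773924 UMIs), and spike-in and reporter rows were left out. Sums were tested with edgeR 4.0.16 (R 4.3.3; filterByExpr, TMM, quasi-likelihood test, Benjamini-Hochberg threshold 0.05), in a model of cell type with plates as blocks. Every plate held all cell types, per the labels, which is where the pairing comes from. Deviations from cell type means correlated at 0.0782 to 0.141 within plates (9 pairs) and at -0.101 to 0.00858 between plates (18 pairs). Removing the cell type means pushes the latter down when the former are above 0. Shares of wells (empirical logit), log2 means in positive wells and log2 Fano factors of wells thinned to 5869 UMIs were fitted with limma 3.58.1 in the same design, for genes in at least 10% of wells. CPM uses TMM-scaled library sizes. DESeq2 1.42.0, other scalings, filters, depths, thinning seeds and omissions of plates were the alternatives; matching wells on UMIs and leaving mitochondrial genes out before thinning were added after seeing the data. No doublet caller was run, and fits without the deepest 5% of wells were made. Scripts were tested on simulated data.

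Named genes were Kmt2a, all called for sums, up to 12 called per other measure with the largest change (5 by smallest p if none), up to 4 per list and the 5 smallest p per direction; other called members of a named list, and Pou5f1, Nanog, Kmt2b, Dppa5a, Acat2 and Insig1, were named after their values were seen. The wells, lists (30) and tests were chosen with earlier results of these data known.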

Additional observations from a re-analysis of the deposited data

Results flagged for a closer look

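Rows for spike-in and reporter sequences entered no comparison. They held a median of 182 UMIs per kept control or deleted well (range 0 to 20174, 2823 wells), above the wells without cells (median 1, range 0 to 3, 15 wells). As a share of a well's UMIs the groups were closer. On plates 1 to 3 the medians were 0.503, 0.457 and 0.380% in control and 0.431, 0.448 and 0.439% in deleted wells. In wells without cells they were 0.380, 0.347 and 0%. These UMIs lie in rows that the comparisons do not use, and the labels do not say what was added to which wells.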

How the results depend on the processing

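For the summed UMIs, the 6 calls became 0 with no replicate block, 3 with only the 6 control and deleted libraries, 3 with mitochondrial genes left out, 69 with wells thinned to equal depth, 179 with no filter on low counts, 325 with DESeq2, and 1 to 5 without 1 plate. For the share of wells, the 136 calls became 0 with no replicate block, 31 with 6 libraries, 43 with mitochondrial genes left out before thinning, 0 with wells matched on UMIs, 0 less what the mean level predicts, and 8 to 76 without 1 plate. For the mean in positive wells, the 25 became 0 with no replicate block, 2 at the 25th percentile of depth, 50 for genes in at least 30% of wells, 7 with 6 libraries, 16 without the deepest 5% of wells, 15 with matched wells, 7 without mitochondrial genes, and 0 to 23 without 1 plate. For the Fano factor, 0 to 2 passed without 1 plate. The difference in median UMIs per well, 932.5, was -742 without the deepest 5% of wells and ranged from -10125 to 10790.5 without 1 plate. Among named genes, Kmt2a's summed difference of -0.05 was 0.11 with thinned wells, 0.11 without the deepest wells and -0.23 to 0.15 without 1 plate (0.15 without plate 3). Less what the mean level predicts, the share of wells differed by -0.022 for Hmgcs1, -0.033 for Peg10, 0.061 for Gdf3, 0.066 for Slc25a5, -0.041 for Sqstm1 and -0.11 for Lgals3. The Fano factor of Vps72 differed by -0.0042 with counts capped. The cause of these changes was not tested.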
